A study of Drosophila melanogaster with 3 samples.

Results

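The proteasome subunit genes were taken as all protein-coding genes of Drosophila melanogaster whose symbol in the Ensembl annotation begins with Prosalpha, Prosbeta, Rpn and a digit, or Rpt and a digit, and they numbered 48 of 13968 protein-coding genes. Of these, 32 were standard subunit genes. They comprised 7 alpha and 7 beta genes of the 20S core, 10 genes of the 19S base (6 ATPases and 4 other subunits) and 8 lid genes. The remaining 16 were paralogues, whose symbols add R or T, in some cases with a number, to that of a standard gene, for related or testis-specific copies (Rpt3R, Prosalpha6T, Prosbeta2R2). The data were peaks from chromatin immunoprecipitation and sequencing (ChIP-seq) of whole embryos aged 0 to 24 h, males and females together, in 3 biological replicates of 1 group. All embryos came from 1 fly line, mam-MiMIC-GFP, in which an eGFP exon inserted in an intron of mam turns Mastermind (Mam) into a GFP fusion, and chromatin was precipitated with an antibody against GFP. The control named in the labels was not analysed here, and a whole embryo averages over its cell types.

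The 26S proteasome degrades proteins tagged with ubiquitin. Its 20S core is a barrel of alpha rings, which gate the entrance, and beta rings, which hold the proteolytic sites. The 19S particle caps the barrel: the ATPases of its base unfold the substrate, and its lid removes the ubiquitin chain. Testis copies of several subunits serve the male germ line. Mam is a coactivator of Notch that does not bind DNA alone. Proteasome genes are ubiquitously expressed and have promoters of the housekeeping kind, many of which in flies carry the DNA replication-related element (DRE), bound by DREF, or the shorter CGATA, bound by BEAF-32.

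The sequences below show the letters around which the summits lay, at subunit genes with a peak and at genes without. Each was read from the Release 6 genome (RefSeq; dm6 coordinates) on the strand of the named gene, 5' to 3', from the 60 bases on either side of the summit or, where there was no summit, upstream of the transcription start site (TSS). All annotated exon bases were left out. Capitals mark CGATA on either strand (TATCG on the other), the DRE (TATCGATA, which holds it) and the core of Motif 1 (GGTCACAC), another housekeeping promoter element. Rpn12 (chr3L:16582914-16583027, plus strand), Prosalpha6 (chr2L:10221241-10221350, plus strand), Rpt2 (chr3R:23931559-23931629, minus strand), Prosbeta3 (chr3R:9006354-9006455, minus strand) and Rpn5 (chr3R:5789130-5789250, plus strand) carried a reproducible peak. They show in turn a cluster of CGATA, a DRE, a single CGATA, a Motif 1 core without CGATA, and the strongest summit of all members, with none of these motifs in the bases shown (its nearest CGATA lay 65 bp from the summit).
Rpn12: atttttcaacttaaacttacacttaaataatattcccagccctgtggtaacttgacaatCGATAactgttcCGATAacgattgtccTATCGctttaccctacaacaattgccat
Prosalpha6: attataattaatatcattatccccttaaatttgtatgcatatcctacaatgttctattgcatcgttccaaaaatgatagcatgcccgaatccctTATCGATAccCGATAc
Rpt2: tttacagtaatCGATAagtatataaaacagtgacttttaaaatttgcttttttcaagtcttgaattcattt
Prosbeta3: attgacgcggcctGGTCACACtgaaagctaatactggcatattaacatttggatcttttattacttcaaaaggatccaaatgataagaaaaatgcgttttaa
Rpn5: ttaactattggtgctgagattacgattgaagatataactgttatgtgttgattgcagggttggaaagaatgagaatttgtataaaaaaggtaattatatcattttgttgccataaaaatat

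At Rpt5 (chr3R:23752819-23752848, plus strand), Rpn3 (chr2L:19051855-19051884, plus strand) and Rpn10 (chr3L:21537008-21537037, plus strand) the site nearest to the summit lay in an annotated exon, so that 30 bases with the DRE or CGATA are shown.
Rpt5: atcgctgtcacTATCGATAagcgccggcga
Rpn3: accgtaaaacgTATCGATAaattgaaacgt
Rpn10: gtcatacaaatcCGATAttttaatgccgat

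Genes without a reproducible peak are shown for contrast. Prosbeta6 (chr3L:16610419-16610538, minus strand) had a DRE beside a summit that was among the weaker calls. Rpt4 (chrX:6291246-6291302, minus strand) had no pooled summit near its TSS. The paralogues Prosalpha6T (chr2L:13231918-13232038, plus strand) and Prosbeta2R2 (chr3R:5219529-5219649, minus strand) had none either, although the bases of Prosbeta2R2 hold 3 copies of CGATA.
Prosbeta6: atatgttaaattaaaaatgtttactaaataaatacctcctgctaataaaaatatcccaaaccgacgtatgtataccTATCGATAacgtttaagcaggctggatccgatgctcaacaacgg
Rpt4: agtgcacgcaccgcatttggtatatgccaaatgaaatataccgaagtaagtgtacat
Prosalpha6T: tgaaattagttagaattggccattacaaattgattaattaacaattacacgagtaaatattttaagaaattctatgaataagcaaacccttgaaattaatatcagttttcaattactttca
Prosbeta2R2: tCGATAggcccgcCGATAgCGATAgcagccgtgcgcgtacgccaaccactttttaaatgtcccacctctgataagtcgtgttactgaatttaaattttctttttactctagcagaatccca

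Mam-GFP peaks lay at most standard subunit genes and at none of the paralogues. A gene was counted when a summit lay within 1000 bp of any of its TSSs. By the reproducible list, the 5326 peaks that passed the authors' irreproducible discovery rate (IDR) threshold, 20 of the 32 standard genes (62.5%) and 0 of the 16 paralogues carried a peak, against 29.7% of all protein-coding genes. Over all 48 members the share was 41.7%. The pooled list of 24073 peaks includes background calls, and in it 30 of 32 standard genes and again 0 of 16 paralogues had a summit, against 58.9% of all genes. These shares describe all genes that the symbol rule caught, in 1 condition, and were not tested. The rule left out the lid gene Sem1, which had no reproducible peak.

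**Figure D1:**
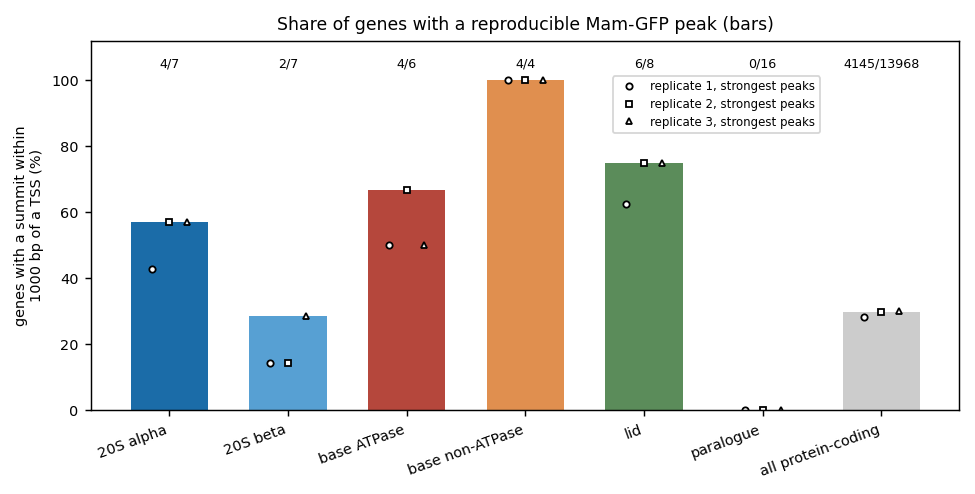
Bars give the percentage of genes with a reproducible summit within 1000 bp of a TSS for each class of proteasome genes, the paralogues and all protein-coding genes, with the counts above. Open symbols give the same percentage from the 5326 strongest peaks of each replicate. All 4 base subunits without ATPase activity carried a peak, 2 of 7 beta genes did, and the paralogue bar is at 0, against 29.7% of all protein-coding genes.

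Each replicate placed standard genes above all protein-coding genes and paralogues below them, while the order of the subunit classes varied. With the 5326 strongest peaks of replicates 1, 2 and 3, 16, 19 and 19 of the 32 standard genes carried a peak, against 28.4%, 29.8% and 30.2% of all genes. The mean share was 56.3% ± 5.41 for standard genes, against 29.4% ± 0.930 for all genes (SD, n = 3), and the paralogue share was 0 in each replicate. In the whole replicate lists, which include background calls, 25 of 32 standard genes had a summit in each list, against 46.9% of all genes. A summit in at least 1 of the lists was found at 31 standard genes and 3 paralogues, against 74.1% of all genes. Of the paralogues, Prosbeta5R2 had a summit in replicate 1 (rank 21929 of 30000), and Rpt3R (rank 21081) and Rpt6R (rank 23559) had 1 in replicate 2 (24267 peaks), all of them low in their lists. The other 13 paralogues had none in any replicate list: Prosalpha1R, Prosalpha3T, Prosalpha4T1, Prosalpha4T2, Prosalpha6T, Prosbeta2R1, Prosbeta2R2, Prosbeta4R1, Prosbeta4R2, Prosbeta5R1, Rpn12R, Rpn13R and Rpt4R. From the nearest pooled summit, the paralogues' TSSs were 1336 to 27186 bp away, with a median of 6814 bp.

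The signal at subunit genes was moderate. Signal here is the authors' value for the strength of a peak, on a scale that the sources used here do not explain, so values are compared within a list only. Over the 20 standard genes with a reproducible peak the median of the strongest signal was 191, against 235 over the 4145 protein-coding genes with such a peak, and 9 of the 20 lay above that median. The values ran from 110 at Rpt3 to 697 at Rpn5, while the strongest peak of the list had 5297 and the weakest 110. All 3 replicates supported 14 of the 20 peaks (70.0%), against 78.5% over all genes with a peak, where support means an overlap with the 5326 strongest peaks of the replicate.

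**Figure D2:**
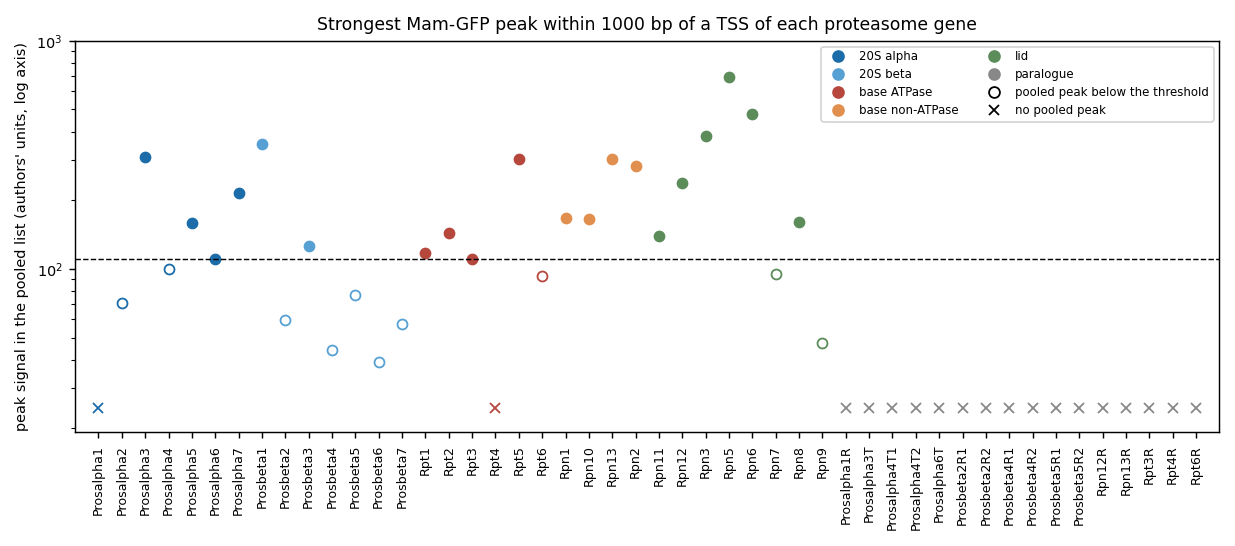
Each point is the strongest pooled Mam-GFP peak within 1000 bp of a TSS of 1 gene, with the authors' signal on a log axis and genes grouped by class. Filled points are reproducible peaks, open points lie below the threshold (dashed line, signal 110), and crosses, placed below the range of the data, mark genes with no pooled peak. Rpn5 (697) and Rpn6 (479) are highest, and all 16 paralogues are crosses.

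The lid genes held the highest signals. Rpn5, which encodes a scaffold subunit of the lid, carried 2 reproducible summits on 3R. The stronger (5789000 to 5789344, signal 697, rank 277 of 5326) ranked 301, 278 and 290 in replicates 1, 2 and 3, with summits at -192, -310 and -224 bp from the TSS. The second (5789379 to 5789477, signal 428, rank 774) lay at -102 bp. TSSs of Hat1, a gene on the opposite strand, lay at -109 and -419 bp. Neither summit can thus be assigned to Rpn5 alone. Rpn6, whose product clamps the lid to the core, had a peak on 2R (14752258 to 14752519, signal 479) that ranked 652, 503 and 790. Rpn3, another scaffold subunit gene, had a peak on 2L (19051614 to 19052009, signal 383) that ranked 867, 835 and 1253. These 3 genes were thus among the upper peaks of every replicate. Rpn12, a further scaffold subunit gene, followed with a signal of 239 and ranks of 1487, 2313 and 2709. Of the pair that forms the deubiquitinating module, Rpn8 had a signal of 160 and Rpn11, the metalloprotease, 140. At Rpn8 the replicates differed, with ranks of 9797, 2036 and 3698, and replicate 1 did not support the peak. Rpn7 and Rpn9, also scaffold subunit genes, stayed below the threshold with pooled signals of 95.4 and 47.5. Sem1, which encodes the smallest lid subunit and was not a member by its symbol, was also below it with 64.6.

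All 4 base genes without ATPase activity carried a peak that all 3 replicates supported. Rpn13, a ubiquitin receptor gene, had a signal of 304 (2R, 13960240 to 13960635) and ranked 1600, 1550 and 1306 in replicates 1, 2 and 3. Rpn2, the scaffold that holds Rpn13, had 283 (3R, 29153239 to 29153634) and ranked 1096, 1896 and 1948. Rpn1, a scaffold that docks ubiquitin shuttle proteins, had 166 (3L, 19914787 to 19915182), and its summit lay at -67, -70 and -66 bp in the replicates. Rpn10, also a ubiquitin receptor gene, had 165, and ranked 3156, 3299 and 3462 in the replicates. The replicates thus placed each of the 4 genes among their strongest peaks.

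The ATPase genes of the base varied more. Rpt5 stood out with a signal of 303 (3R, 23752814 to 23752918) and ranks of 1210, 1383 and 1677 in replicates 1, 2 and 3. Rpt2 had 143 (3R, 23931371 to 23931766) with ranks of 2785, 6670 and 4394, and Rpt1 had 117 (2R, 7653797 to 7654192) with ranks of 4832, 4386 and 8156. Each of these was missing from the strongest peaks of 1 replicate. Rpt3 was just inside the reproducible list (signal 110, rank 5324 of 5326) and ranked 9715, 5045 and 4861. Rpt6 was below the threshold, with 93.1 (rank 6406 of the pooled list). The members nearest outside the threshold were Prosalpha4 (rank 5969) and Rpn7 (rank 6240). Rpt4 had no pooled summit within 1000 bp, and its TSS was 3254 bp from the nearest. In the replicate lists Rpt4 appeared only in replicate 3, at rank 17484 of 24306.

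In the 20S core, 4 of the 7 alpha genes (57.1%) carried a reproducible peak, against 29.7% of all protein-coding genes. Prosalpha3 had a signal of 308 (2R, 20994788 to 20994944) with ranks of 1674, 1263 and 1316, Prosalpha7 had 216 (2R, 9847661 to 9848056) with ranks of 3021, 2500 and 2357, and Prosalpha5 had 158 (2R, 17412522 to 17412917) with ranks of 4139, 3437 and 3130. Prosalpha6 had 111 and was supported by replicate 3 alone, so it sat at the threshold like Rpt3. Prosalpha4 (99.5) and Prosalpha2 (71.1) had weaker pooled peaks, and Prosalpha1 had none within 3358 bp in the pooled list and none near its TSS in any replicate list. At Prosalpha4 the ranks were 11390, 3368 and 8098, so replicate 2 alone held it among its strongest peaks. The ranked summits lay at -342, -344 and -19 bp from the TSS in replicates 1, 2 and 3, and the strongest pooled summit at -325 bp. The rank in replicate 3 was thus that of a summit nearer to the TSS.

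Of the 7 beta genes, 2 carried a reproducible peak (28.6%), a share near the 29.7% of all protein-coding genes. With the strongest peaks of replicates 1, 2 and 3 the beta share was 14.3%, 14.3% and 28.6%, against 28.4%, 29.8% and 30.2% of all genes. Prosbeta1, the gene of the caspase-like site, had the highest signal of the core, 354 (2R, 16014792 to 16014963), with ranks of 1981, 986 and 920 in replicates 1, 2 and 3. Prosbeta3 had 125 (3R, 9006216 to 9006611) with ranks of 6558, 8828 and 3184 and was supported by replicate 3 alone. The genes of the other proteolytic sites, Prosbeta2 (trypsin-like, 59.6) and Prosbeta5 (chymotrypsin-like, 77.2), were below the threshold in the pooled list. Prosbeta7 (57.2), Prosbeta4 (44.3) and Prosbeta6 (39.2) were lower still, and the last ranked 20019 of 24073. All 7 beta genes thus had a pooled summit, 5 of them only among the weaker calls. Taking alpha and beta genes as the core, 6 of 14 genes (42.9%) carried a reproducible peak, against 14 of 18 (77.8%) in the 19S particle, and the difference between them was not tested.

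**Figure D3:**
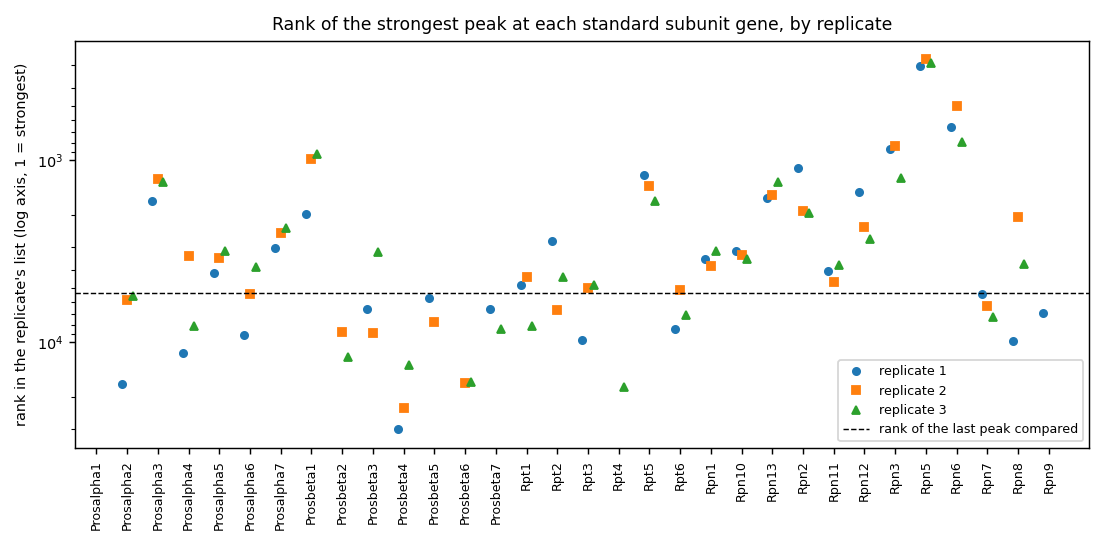
Rank of the strongest peak within 1000 bp of a TSS of each standard subunit gene in the lists of replicates 1 to 3, on a log axis with the strongest peaks at the top. The dashed line is rank 5326. A missing symbol means no summit in that replicate. Rpn5 ranked 301, 278 and 290, while other genes, such as Rpn8 (9797, 2036 and 3698), fall on both sides of the line.

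The order of the subunit genes was much alike in the replicates. Over the 26 or 27 standard genes with a summit in both lists, Spearman's rho of the ranks was 0.761 for replicates 1 and 2, 0.850 for replicates 1 and 3 and 0.871 for replicates 2 and 3. Each rank was that of the strongest summit within 1000 bp of a TSS of the gene. That summit was not always at the same place in each list, as at Prosalpha2 (-758, -154 and -205 bp). The genes share their genome annotation and the peak lists their processing, so these values only describe the lists. The reproducible peaks of Rpt1, Rpt2, Rpt3, Rpn8, Prosalpha6 and Prosbeta3 lacked support from at least 1 replicate. Their pooled ranks ran from 3447 at Rpn8 to 5324 at Rpt3.

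Summits lay close to the TSS, mostly just upstream. The median position was -54 bp over the 20 standard genes, against -119 bp over all protein-coding genes with a reproducible peak. Of the 20, 18 (90%) were upstream of the nearest TSS of the gene, against 85.5% of all genes with a peak, and 15 (75%) lay within 100 bp, against 36.9%. All 20 lay within 500 bp, against 84.1%, and the farthest was Rpn5 at -303 bp. The 2 downstream summits were those of Rpn3 (22 bp) and Rpn10 (19 bp), both in an annotated 5' UTR. Of the other 18, 14 were intergenic and 4 (Rpt1, Rpn5, Rpn6 and Rpn8) were in an annotated intron.

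**Figure D4:**
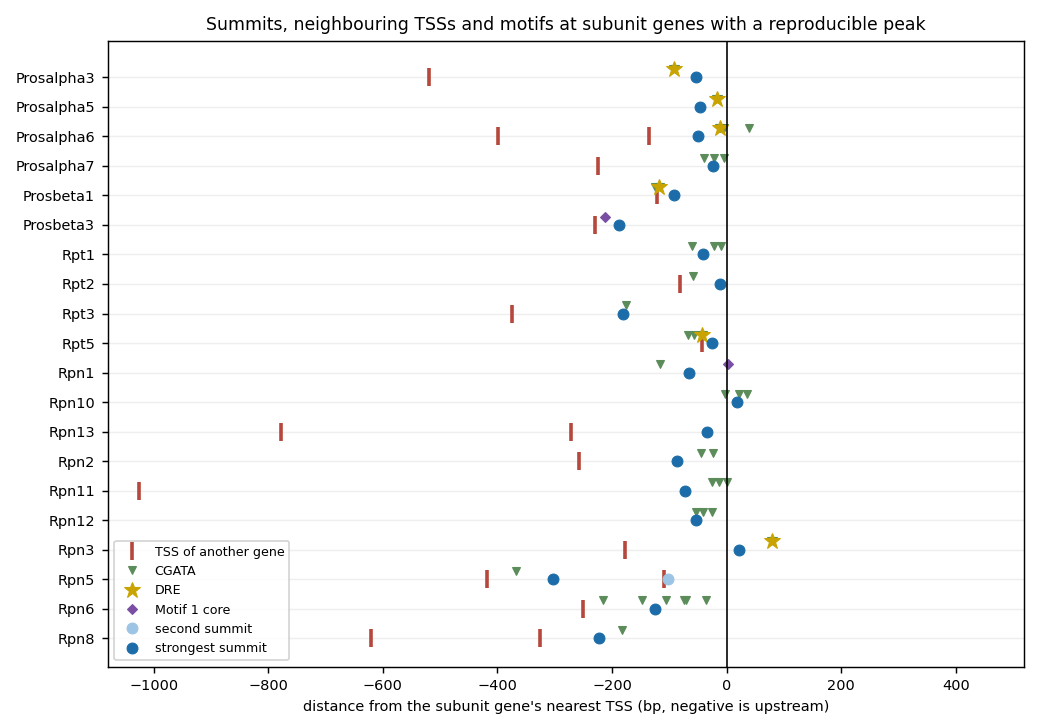
Positions in bp from the nearest TSS of each standard subunit gene with a reproducible peak (line at 0, negative is upstream). Dark circles are the strongest summit, the pale circle is the second summit of Rpn5, red bars are TSSs of other protein-coding genes within 1000 bp of the summit, and the smaller marks above each row are motifs within 100 bp of the summit. Most summits fall between -100 bp and the TSS, 15 of the 20 rows have a red bar, and CGATA or DRE marks sit beside 18 of the summits.

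Most of these summits also lay within 1000 bp of a neighbour's TSS, as did those of most genes with a peak. In 15 of the 20 genes (75%) the strongest summit was within 1000 bp of the TSS of another protein-coding gene, against 64.1% of all genes with a peak, and in all 15 that gene lay on the opposite strand. The peak cannot be assigned to either gene of such a pair from these data. The TSSs of the pairs were 42 to 1025 bp apart, with a median of 230 bp. In 15 of the 20 genes the TSS of the subunit gene was the nearest of all, and in Prosbeta1, Prosbeta3, Rpt5, Rpn5 and Rpn8 that of the neighbour was nearer. Standard genes often had such a neighbour with or without a peak: 22 of 32 (68.8%) had a TSS on the opposite strand within 1000 bp of their own, against 36.8% of all genes. Among these, 14 of 22 carried a reproducible peak (63.6%), against 51.1% of all genes with such a neighbour. Among genes without one, 6 of 10 standard genes did (60%), against 17.2% of all genes. Of the paralogues, 4 of 16 had such a neighbour, and none of those 4 carried a peak. Standard genes with a single TSS carried a peak in 12 of 22 cases (54.5%), against 23.5% of all single-TSS genes, and 14 of the 16 paralogues had a single TSS.

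CGATA was found at nearly all of the subunit peaks. Within 100 bp of the strongest summit, 18 of 20 standard genes (90%) held at least 1 CGATA on either strand, against 41.8% of the 3389 reproducible peaks within 1000 bp of a protein-coding TSS. The exceptions were Prosbeta3, which held a Motif 1 core, and Rpn13. Of the 20 peaks, 13 (65.0%) held 2 or more copies, against 22.3%, and 9 (45.0%) held 3 or more, against 11.2%. Both strands were counted, and the DRE reads the same on both, so 1 DRE counts as 2 copies in either group. The 2 copies at Prosalpha3, Prosalpha5 and Rpn3 were those of 1 DRE each, as were 2 of the 3 at Prosbeta1. The copy counts are thus not independent of the DRE share. Rpn6 had the most, with 6 copies. In 16 of the 20 a copy lay within 50 bp of the summit (80.0%, against 27.7%), and at Prosalpha7 and Rpn12 it was 1 bp away. The DRE was present in 6 of 20 (30%), against 8.85%, at Prosalpha3, Prosalpha5, Prosalpha6, Prosbeta1, Rpt5 and Rpn3. The sequences of Prosalpha6, Rpt5 and Rpn3 above show it. Since the DRE contains CGATA, every peak with a DRE also counts for CGATA.

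**Figure D5:**
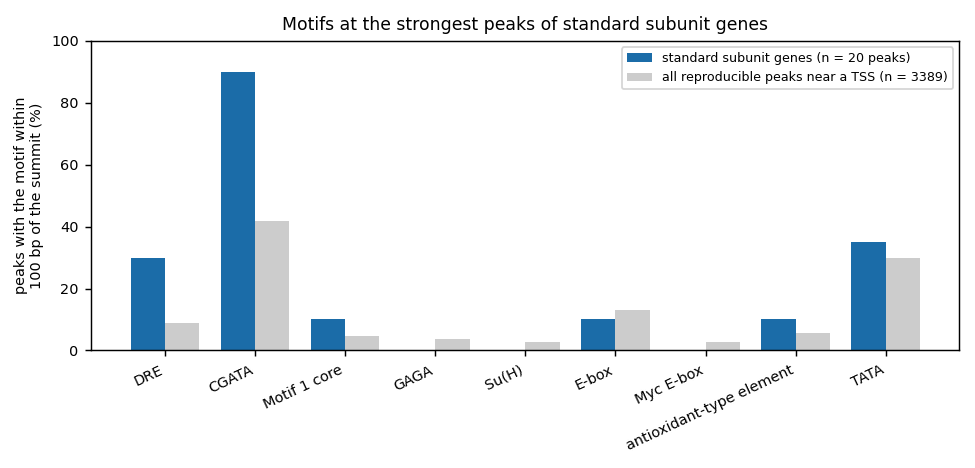
Percentage of peaks that hold each motif, on either strand, within 100 bp of the summit, for the 20 strongest reproducible peaks of standard subunit genes (dark bars) and for all 3389 reproducible peaks within 1000 bp of a protein-coding TSS (grey bars). CGATA stands at 90% against 41.8% and the DRE at 30% against 8.85%, and no subunit peak held the GAGA, Su(H) or Myc E-box letters.

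Base composition and distance were looked at beside these shares, in comparisons added after the motif shares were seen. The median G+C content of the 201 bp around the summit was 36.6% at the subunit peaks and 36.8% at all reproducible peaks near a TSS. CGATA read backwards (ATAGC), which has the same bases, was in 5 of 20 subunit peaks (25%), against 33.4%, and the DRE read backwards (ATAGCTAT) in 0 of 20, against 0.915%. Peaks near the TSS held CGATA more often in general. Among strongest peaks whose summit lay within 100 bp of the gene's TSS, 14 of 15 subunit peaks held it (93.3%), against 58.8% of the 1348 such peaks of all genes, and 6 of 15 held the DRE (40.0%), against 16.1%. ATAGC was in 5 of the 15 (33.3%), against 36.4% of the 1348.

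The other motifs were near their background or rare. A Motif 1 core was in 2 of 20 subunit peaks, at Prosbeta3 and Rpn1 (10%, against 4.81% of all reproducible peaks near a TSS). The letters TATAAA were in 7 of 20 (35.0%, against 29.9%) and the E-box CAGCTG in 2 (10%, against 13.2%). TGACNNNGC, letters of the antioxidant element bound by Cnc with Maf-S, were in 2 (10%, against 5.64%), at Prosbeta3 and Rpn1. At both genes a match overlapped the Motif 1 core and shared letters with it. The centres of the match and the core lay 28.0 and 24.5 bp from the summit at Prosbeta3, and 65.0 and 68.5 bp at Rpn1. The 2 motifs are thus not separate finds at these genes. None of the 20 held the Su(H) letters GTGGGAA (against 2.60%), GAGAGAG (against 3.75%) or the Myc E-box CACGTG (against 2.77%).

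The promoters were searched without regard to peaks, from 250 bp upstream to 50 bp downstream of the outermost TSS. CGATA was in 27 of 32 standard promoters (84.4%) and 8 of 16 paralogue promoters (50%), against 47.4% of all protein-coding promoters. The DRE was in 12 of 32 (37.5%) and 0 of 16, against 9.36%. Standard genes with and without a reproducible peak held the DRE in 8 of 20 (40.0%) and 4 of 12 (33.3%), and CGATA in 18 of 20 (90%) and 9 of 12 (75%). The 4 genes with a DRE but no reproducible peak were Prosbeta2, Prosbeta6, Rpn7 and Rpn9. Over all genes, 49.0% of those with a DRE in the promoter carried a reproducible peak, against 29.7% of all protein-coding genes. Of the 20 subunit peaks, 14 held no DRE within 100 bp of the summit. The count with a DRE depended on the stretch searched: it was 5 within 50 bp and 9 over the whole peak.

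Other genes of the ubiquitin and proteasome pathway were described from a list of 25, of which 24 were matched by symbol. Of the 24, 16 carried a reproducible peak (66.7%, against 29.7% of all genes), with a median signal of 246, and 14 of the 16 peaks were supported by 3 replicates. Among factors acting on the proteasome itself, Pomp, a chaperone of core assembly, had a signal of 322, Uch-L5, a deubiquitinase that docks on Rpn13, had 318, and PI31, a regulator of the core, had 128. The peak of ntc, which encodes an F-box protein that acts with PI31 in sperm, had 329. REG, the 11S activator gene (60.4), and Usp14, a deubiquitinase gene (109.6, rank 5370), were below the threshold. Cnc is a stress-response factor that raises proteasome gene expression. Peaks lay at cnc itself (307), its partner maf-S (254), its inhibitor Keap1 (471) and the deglycosylase gene Pngl (341). The list of 25 did not set these genes apart as a group. The summit of maf-S lay 691 bp downstream of its TSS and also within 1000 bp of CG11110 and rig, and that of Keap1 lay at -811 bp and also within 1000 bp of kuk. In 10 of the 16 pathway genes with a peak (62.5%) the summit lay within 1000 bp of another protein-coding gene's TSS. Over all genes with a peak the share was 64.1%. Such a peak cannot be assigned to the listed gene alone from these data.

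Upstream in the pathway, peaks lay at the ubiquitin gene Ubi-p63E (366), the activating enzyme gene Uba1 (183) and the ligase genes Ufd4 (238), Ube3a (179) and sip3 (127). They also lay at TER94 (218) and Ufd1 (214), which encode the segregase p97 and a cofactor of it, and at rngo (123), a shuttle factor gene. Npl4 (47.7), Rad23 (74.6), Ubqn (95.9) and Ubi-p5E (83.0) had weaker pooled peaks, as did Sem1. The autophagy receptor gene ref(2)P had no pooled summit within 1000 bp.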

How the data were processed

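Per the notes deposited with the samples, the submitters provide dm6 peak lists for each replicate, for the 3 replicates pooled, and after an IDR threshold. For the aligner, the peak caller and their versions: not given in the sources used here. The authors deposited a signal value (the strength of a peak, whose scale is not explained) and a −log10 q-value per peak, and no read numbers, so depth is unknown. The reproducible list was identical to the 5326 strongest pooled peaks. The dm3 lists were not used here. Python 3.11.15 and numpy 2.4.6 were used with the Ensembl 115 annotation of BDGP6 (dm6 coordinates), and no peak ended beyond its chromosome arm. Summits (start plus summit offset) were matched to TSSs within 1000 bp, and motif letters were looked for up to 100 bp from them, in either orientation. The matching and motif search were tested on simulated data with known answers. There is 1 group and no contrast, so counts and medians stand beside those of all genes without a test. Of 25 pathway genes listed, CHIP was not matched. The reversed letters and the subset near the TSS were chosen after seeing the data. All members were named, with coordinates for up to 3 genes per class with the highest signal. Members, lists and rules were chosen with earlier results of these data known. Subunits were assigned to core, base and lid from textbook knowledge.

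Alternatives were other TSS windows (250, 500 and 5000 bp), the outermost TSS alone, the 2663 strongest peaks of the list, the whole pooled list, the nearest gene alone, other motif windows, and leaving out each replicate by keeping reproducible peaks that the strongest peaks of both others overlapped.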

Additional observations from a re-analysis of the deposited data

How the results depend on the processing

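Of 58 alternative values, 42 stayed within 1.5 times the reported count or, for the median signal, within the SD of the replicate medians. This tally does not measure stability, because not all of the values were free to move. Members and standard genes with a peak were the same 20 genes, counted under both names. The paralogue count of 0 could only stay at 0 under narrower or stricter settings. A count at exactly 1.5 times, such as 30 against 20, was taken as within. Standard genes with a peak numbered 20 of 32 with windows of 500 and 250 bp (against 26.2% and 21.6% of all genes), 19 with the outermost TSS alone (27.7%) and 15 with the nearest gene alone (20.9%). They numbered 15 to 16 with a replicate left out, against 24.1% to 26.4% of all genes. Among the 2663 strongest reproducible peaks, 10 members, all standard genes, carried a peak (against 18.1% of all genes), the median signal was 306, 9 peaks were shared with another gene and 0 held a Motif 1 core. With a window of 5000 bp, 1 paralogue (Prosbeta2R2) and 29 standard genes carried a peak, against 50.3% of all genes, all 29 were shared, and the median signal was 300.3. The median was 216 over the 19 genes left with the outermost TSS alone. It was 261 to 283 over the 15 to 16 genes left when a replicate was left out. These settings only removed genes from the 20, and the signals of the remaining genes were unchanged. A Motif 1 core was in 1 peak with a motif window of 50 bp and in 1 whichever replicate was left out. With no read numbers, what depth limits could not be judged, and a missing peak is not shown to be missing binding.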

Other observations

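The genes that shared a summit with a standard subunit gene had varied functions. Hat1, a histone acetyltransferase gene, lay 116 bp from the strongest summit of Rpn5, and Slbp, whose product binds the stem-loop of histone mRNAs, lay 171 bp from that of Rpn2. RanBP3, a gene of nuclear transport, and Rpt5 had TSSs 42 bp apart, the smallest gap of the 15 pairs, and the summit lay 17 bp from the TSS of RanBP3. Rrp42, an exosome subunit gene, lay 30 bp from the summit of Prosbeta1, and Iru, a ubiquitin ligase gene, 42 bp from that of Prosbeta3. The augmin gene dgt3 lay 465 bp from the summit of Prosalpha3, and Npc1a, a gene of sterol transport, 85 bp from that of Prosalpha6. The kinase gene Slik lay 103 bp from the summit of Rpn8, and ave, a gene of Ras signalling, 126 bp from that of Rpn6.

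By chromosome arm, standard genes with a reproducible peak numbered 3 of 4 on 2L (against 27.0% of all genes there), 8 of 10 on 2R (29.2%), 3 of 5 on 3L (29.5%), 5 of 9 on 3R (31.2%) and 1 of 4 on the X (31.5%). Each arm holds few of the genes, and the arms were not compared by a test.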
